A study of Mus musculus with 3 samples.

Results

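The TNF receptor superfamily holds receptors through which T cells take up signals beside the T cell receptor. Here 8 of its genes, out of 31053 genes in the deposited feature table, were followed in mouse CD4+ T cells: *Tnfrsf4* (OX40), *Tnfrsf9* (4-1BB), *Tnfrsf18* (GITR), *Tnfrsf1a* (TNFR1), *Tnfrsf1b* (TNFR2), *Tnfrsf14* (HVEM), *Cd27* and *Fas*. They were taken by symbol, each symbol occurred once, and all 8 were detected in every library. Naïve-enriched CD4+ T cells from spleens of C57BL/6 mice were sorted as 7AAD-CD3+CD4+ cells and measured by droplet single-cell RNA sequencing in 3 libraries. WT cells came from *Ift20* f/f mice without Cre and were either kept in buffer (DPBS) or stimulated for 24 h through CD3 and CD28, with each antibody at 1 μg/mL. IFT20-KO cells came from *Ift20* f/f CD4 cre mice and were stimulated in the same way. All 3 libraries therefore carried the floxed *Ift20* allele, and Cre was driven by the *Cd4* promoter, so that every T cell passing through a CD4+ stage in the thymus could lose the gene before the culture. *Ift20* encodes a subunit of the intraflagellar transport complex. No unstimulated IFT20-KO library was analysed here, the study's methods give male mice of 5 to 10 weeks, and whether animals were pooled is not stated in the sources used here.

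Each library was the only one of its group, so no test was possible. The 95% intervals given below are counting intervals of the molecular barcodes (UMIs), which count RNA molecules. They treat each UMI as independent and do not cover the variation between cells, animals or cultures. Levels are counts per 1000000 UMIs (CPM) of each library's total.

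Members of this receptor family bind trimeric ligands, and most costimulatory members signal through TRAF adaptor proteins to NF-κB and MAP kinases. OX40, 4-1BB and GITR are known as receptors that effector T cells gain after antigen contact and that regulatory T cells carry at rest, whereas CD27 and HVEM are present on naïve T cells. TNFR1 and Fas carry a cytoplasmic death domain and can also start cell death, and TNFR2 binds the same ligand as TNFR1 without a death domain.

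Cells were kept if more than 200 genes were detected and mitochondrial genes gave less than 15% of their UMIs. The unstimulated library, the stimulated WT library and the IFT20-KO library then held 8031, 9903 and 13920 cells and 37133949, 116979076 and 106435143 UMIs. The median was 4627, 12167 and 5014.5 UMIs per cell, so shares of cells with a UMI are also given after each cell was thinned to 1400 UMIs. The T cell markers summed to between 3283 and 3722 CPM, with all 6 detected in each library, whereas the 4 B cell markers summed to at most 3.31 CPM, the 3 NK cell markers to at most 0.458 CPM and the 6 myeloid markers to at most 0.969 CPM. The CD8 T cell markers summed to 28.7, 9.16 and 11.5 CPM in the same order, with a UMI in 10.9%, 8.13% and 6.95% of cells, almost all from *Cd8b1*, since *Cd8a* was at 0.162, 0.120 and 0.291 CPM, and their part in the results was not tested. The libraries shared 114 to 197 barcode sequences pairwise, at most 1.99% of a library. *Ift20* itself was at 64.4 CPM in unstimulated WT, 76.0 CPM in stimulated WT and 6.60 CPM in stimulated IFT20-KO cells, lowest in the library labelled as the knockout.

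In the annotation of the mouse genome (GENCODE M21, GRCm38), 5 of the 8 genes lie on chromosome 4. *Tnfrsf4* (ENSMUSG00000029075, chr4:156013843-156016612) and *Tnfrsf18* (ENSMUSG00000041954, chr4:156026164-156028895) stand head to tail on the plus strand, 9551 bases apart and with 0 protein-coding genes between them. *Tnfrsf9* (ENSMUSG00000028965, chr4:150914562-150946102, plus strand), *Tnfrsf1b* (ENSMUSG00000028599, chr4:145213463-145246870, minus strand) and *Tnfrsf14* (ENSMUSG00000042333, chr4:154921933-154928563, minus strand) are further away on the same chromosome. *Cd27* (ENSMUSG00000030336, chr6:125232622-125237010, minus strand) and *Tnfrsf1a* (ENSMUSG00000030341, chr6:125349362-125362484, plus strand) are 112351 bases apart on chromosome 6, and *Fas* (ENSMUSG00000024778, chr19:34290666-34327772, plus strand) is on chromosome 19. *Tnfrsf9*, *Tnfrsf18* and *Cd27* overlap genes on the opposite strand (*Camta1*, *Gm16008* and *Vamp1*).

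Because *Tnfrsf9* and *Tnfrsf4* had the largest stimulated-to-unstimulated ratios, *Cd27* a lower CPM after stimulation and *Fas* about the same CPM over all cells, the bases before their transcription starts are shown for comparison. RefSeq promoters (GRCm38.p6) matched all 8 genes, with 9 starts, since *Tnfrsf9* has 2. The windows cover the 250 bases before the start, read 5′ to 3′ on the gene's strand (minus for *Cd27*, plus for the others), shortened for *Tnfrsf4* to the part without an annotated exon. Capitals mark κB-type letters (GGG, any 5 bases, then CC, where overlapping matches run together) and AP-1 letters (TGANTCA), searched on both strands.
*Tnfrsf4*, chr4:156013611-156013694: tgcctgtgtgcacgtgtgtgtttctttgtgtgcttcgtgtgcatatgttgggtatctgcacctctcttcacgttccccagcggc
*Tnfrsf9*, first start, chr4:150919905-150920154: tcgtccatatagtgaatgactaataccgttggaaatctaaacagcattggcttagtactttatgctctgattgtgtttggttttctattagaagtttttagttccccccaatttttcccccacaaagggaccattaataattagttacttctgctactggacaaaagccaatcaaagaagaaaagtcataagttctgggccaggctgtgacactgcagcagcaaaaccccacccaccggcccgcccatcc
*Cd27*, chr6:125237028-125237277: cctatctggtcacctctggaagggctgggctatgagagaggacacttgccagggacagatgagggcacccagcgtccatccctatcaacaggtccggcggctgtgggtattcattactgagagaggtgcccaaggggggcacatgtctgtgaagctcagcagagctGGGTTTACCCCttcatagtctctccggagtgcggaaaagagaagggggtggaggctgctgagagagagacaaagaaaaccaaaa
*Fas*, chr19:34290409-34290658: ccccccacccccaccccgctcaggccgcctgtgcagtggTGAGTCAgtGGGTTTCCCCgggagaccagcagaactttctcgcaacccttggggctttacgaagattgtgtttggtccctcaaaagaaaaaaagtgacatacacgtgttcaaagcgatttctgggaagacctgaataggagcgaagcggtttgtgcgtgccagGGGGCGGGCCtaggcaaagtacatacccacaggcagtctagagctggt
Neither the κB-type nor the AP-1 letters occurred in the full window of *Tnfrsf4*, of the first *Tnfrsf9* start or of *Tnfrsf18*. The second *Tnfrsf9* start had both, with GGGATTTCCC beginning 42 bases and TGAGTCA 15 bases before it, but the last 81 bases of that window are annotated as exon and hold both matches. *Fas*, whose CPM over all cells was about the same with and without stimulation, also had both. The κB-type letters alone were found for *Tnfrsf1a*, *Tnfrsf1b*, *Tnfrsf14* and *Cd27*. The NFAT core letters (GGAAA) were also searched on both strands and are not marked. They occurred in the full windows of *Tnfrsf4*, both *Tnfrsf9* starts, *Tnfrsf18*, *Tnfrsf14*, *Cd27* and *Fas*, but not of *Tnfrsf1a* or *Tnfrsf1b*. The only match of *Tnfrsf4* begins 220 bases before the start. It lies in the part annotated as exon, outside the sequence shown. Among 32851 promoter windows of the same length, 45.8% held κB-type letters, 6.75% AP-1 letters and 55.6% NFAT core letters. A match of letters is not a shown binding site, and the counts per gene do not tell which start was used.

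To see how T cell receptor and CD28 stimulation bore on the receptor set, stimulated WT cells were compared with unstimulated WT cells. The labels give these libraries as 24 h and 0 h, and no unstimulated library of 24 h was analysed here. Stimulation and time in culture therefore cannot be told apart in these ratios. *Tnfrsf4* and *Tnfrsf9* were far higher after stimulation, *Tnfrsf18* was higher by a smaller factor, *Tnfrsf1a*, *Cd27*, *Tnfrsf14* and *Tnfrsf1b* were lower, and *Fas* was about level over all cells. At a 2-fold limit, 2 of the 8 receptors were higher and 1 was lower, whereas 19.3% of the 13297 genes that had 10 or more UMIs in the pair of libraries were higher and 23.0% were lower. The median log2 ratio was −0.18 over the 8 receptors and −0.09 over all genes. These directions are relative to the UMI total of each library, and stimulated cells held more UMIs each. Counted as UMIs per cell without scaling, *Tnfrsf1a*, *Tnfrsf1b*, *Tnfrsf14* and *Cd27* were higher after stimulation, by 0.12, 1.01, 0.80 and 0.65 on the log2 scale, and *Fas* by 1.34. The median log2 ratio of all genes on that measure was 1.26.

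**Figure D1:**
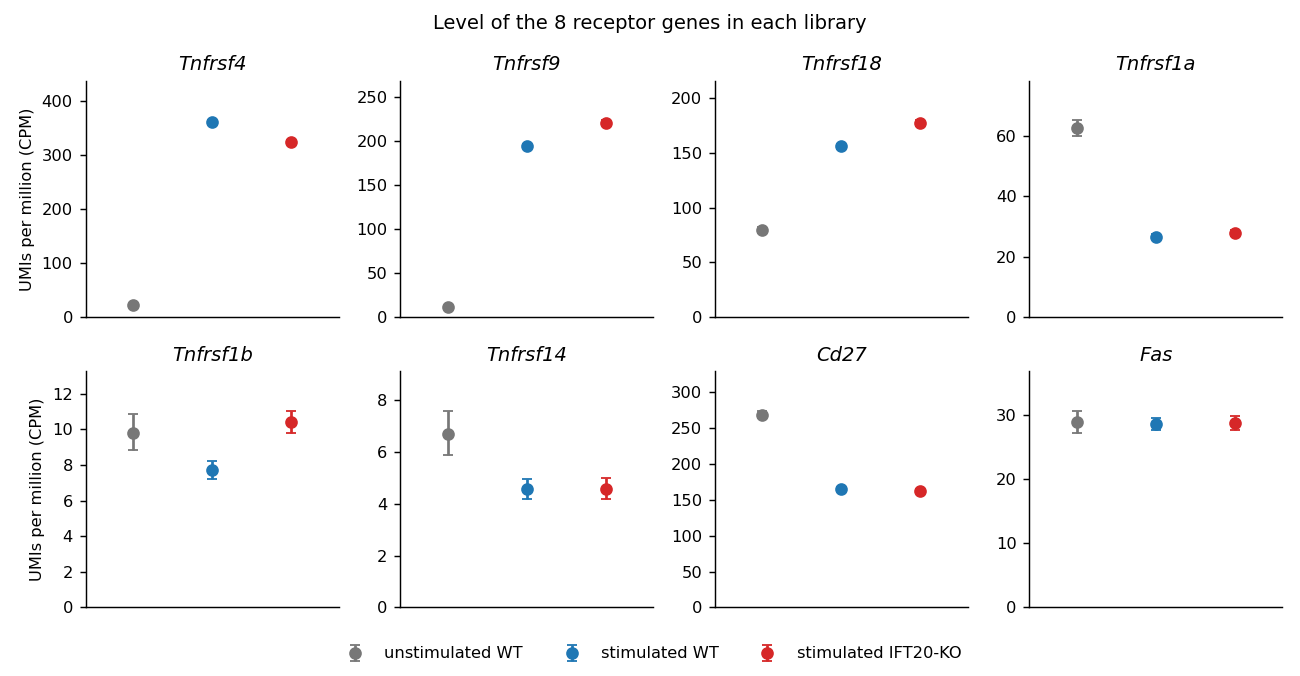
Level of each of the 8 receptor genes in UMIs per 1000000 (CPM, linear axes from 0, a scale of its own for each gene) in the unstimulated WT (grey), the stimulated WT (blue) and the IFT20-KO (red) library, 1 library each, with 95% counting intervals as bars. *Tnfrsf4* stands at 23.0 CPM without stimulation and at 361 and 325 CPM in the stimulated libraries, whereas the 3 values of *Fas* overlap between 28.6 and 28.9 CPM.

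Of the receptors that were higher after stimulation, *Tnfrsf4* was at 23.0 CPM (95% interval 21.5 to 24.6) in unstimulated WT, 361 CPM (357 to 364) in stimulated WT and 325 CPM (321 to 328) in stimulated IFT20-KO cells. The stimulated WT level was 15.7-fold the unstimulated one (log2 ratio 3.97, interval 3.87 to 4.07). *Tnfrsf4* UMIs were found in 5.32% of unstimulated and 75.9% of stimulated WT cells, and in 2.01% and 34.8% once the cells were thinned to 1400 UMIs. No cell type that lacks these receptors was in the sort, so the share that free RNA alone would give was not measured. *Tnfrsf9* was at 11.4 CPM (10.4 to 12.6), 195 CPM (192 to 197) and 221 CPM (218 to 224) in the same order. Its stimulated WT level was 17.0-fold the unstimulated one (log2 ratio 4.09, interval 3.95 to 4.23), and the thinned share of cells was 0.927% against 23.4%. The intervals of the ratios of *Tnfrsf4* and *Tnfrsf9* overlap, so the ratios cannot be ranked.

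*Tnfrsf18*, the neighbour of *Tnfrsf4* on chromosome 4, had a smaller difference from a higher starting level. It was at 79.4 CPM (76.5 to 82.3) in unstimulated WT, 156 CPM (154 to 158) in stimulated WT and 177 CPM (174 to 179.5) in IFT20-KO cells. Its log2 ratio of stimulated to unstimulated WT was 0.97 (0.92 to 1.03). Before thinning, 27.9% of unstimulated cells already had a *Tnfrsf18* UMI, against 68.1% of stimulated WT cells, and after thinning 10.4% against 21.0%. The 2-fold limit lies inside its interval, and thinned cells, at a log2 ratio of 1.15, put it past the limit.

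The receptors that were lower after stimulation included the broadly expressed death-domain receptor gene *Tnfrsf1a*. It was at 62.6 CPM (60.0 to 65.2) without and 26.6 CPM (25.7 to 27.6) with stimulation (log2 ratio −1.23, interval −1.31 to −1.15), and the thinned share of cells with a UMI was 8.27% against 3.63%. *Cd27*, the receptor for CD70, was at 269 CPM (264 to 274) and 165 CPM (163 to 168), at a log2 ratio of −0.70 (−0.74 to −0.67), with thinned shares of 31.1% and 22.0%. Both were also lower when only cells of like depth were compared, in each of 5 classes (under 1400, 1400 to 3000, 3000 to 6000, 6000 to 12000 and 12000 to 24000 UMIs per cell).

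*Tnfrsf14*, whose product binds BTLA, CD160 and LIGHT, was at 6.71 CPM (5.90 to 7.59) and 4.56 CPM (4.18 to 4.96), at a log2 ratio of −0.56 (−0.78 to −0.33). *Tnfrsf1b* was at 9.80 CPM (8.82 to 10.9) and 7.71 CPM (7.22 to 8.23), at a log2 ratio of −0.35 (−0.52 to −0.17). These genes had the fewest UMIs of the 8, and their direction differed between ways of processing. After thinning, the log2 ratio of *Tnfrsf1b* was 0.01, and with cells of each depth class weighted equally that of *Tnfrsf14* was 0.22. For *Tnfrsf1b* the sign depended on the depth class. It was 1.38 (0.46 to 2.44) with 1400 to 3000 UMIs and 0.78 (0.11 to 1.39) with 3000 to 6000. It was −0.44 (−0.81 to −0.06) with 6000 to 12000 UMIs and −1.20 (−1.96 to −0.32) with 12000 to 24000. Under 1400 UMIs the interval included 0. *Fas*, the death receptor, was at 28.9 CPM (27.2 to 30.7), 28.6 CPM (27.7 to 29.6) and 28.8 CPM (27.8 to 29.8) in unstimulated WT, then stimulated WT, then IFT20-KO cells. Its log2 ratio for stimulation was −0.02 (−0.11 to 0.09) over all cells. In the middle classes of like depth it was higher in stimulated WT, at 58.1 against 37.3 CPM with 1400 to 3000 UMIs, 40.2 against 29.6 CPM with 3000 to 6000 UMIs and 31.4 against 26.2 CPM with 6000 to 12000 UMIs. The log2 ratios were 0.64 (0.18 to 1.12), 0.45 (0.04 to 0.83) and 0.26 (0.05 to 0.47), the intervals of the other 2 classes included 0, and with the 5 classes weighted equally it was 0.31. The class with 12000 to 24000 UMIs held 46.3% of the stimulated WT cells but only 60 unstimulated cells. Its log2 ratio was 0.12 (−0.49 to 0.82).

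**Figure D2:**
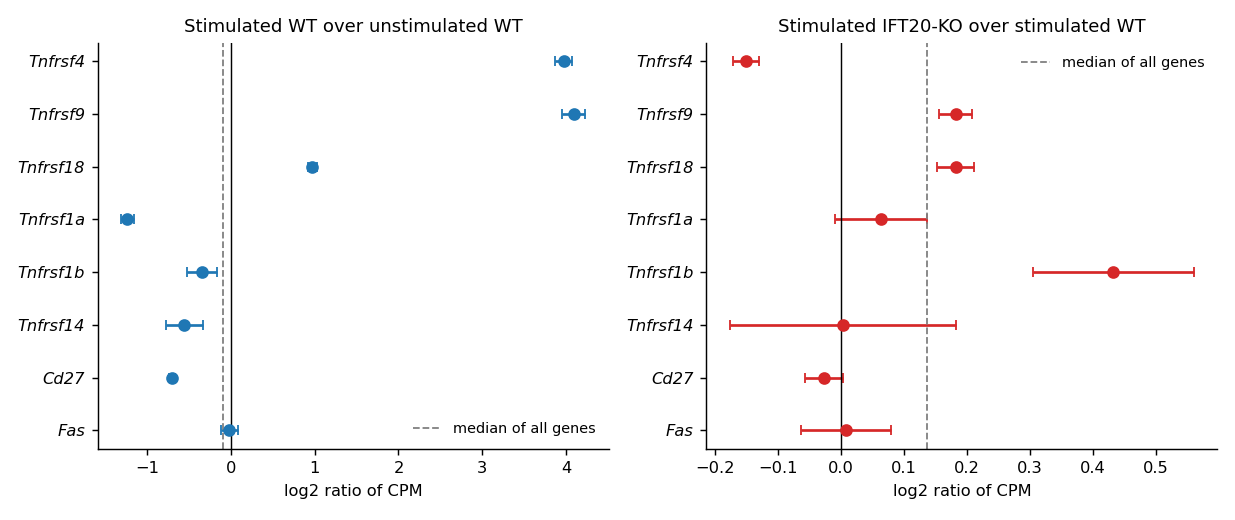
Log2 ratio of CPM for each receptor gene, stimulated WT over unstimulated WT (left) and stimulated IFT20-KO over stimulated WT (right, on a narrower axis), with 95% counting intervals and the median of all genes as a dashed line. On the left *Tnfrsf4* and *Tnfrsf9* stand near 4, and on the right every receptor lies between −0.15 and 0.43.

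Among the unstimulated cells, a small group held a large share of the OX40 transcript. *Foxp3*, the lineage factor of regulatory T cells, was found in 153 of the 7230 unstimulated cells that could be thinned to 1400 UMIs. These cells were not deeper than the rest, with a median of 4573 against 4801 UMIs before thinning. In them *Tnfrsf4* was at 285 CPM (218 to 366), against 14.5 CPM (12.3 to 17.1) in the 7077 other cells (log2 ratio 4.29, interval 3.84 to 4.73), and they held 29.8% of the *Tnfrsf4* UMIs as 2.12% of the cells. *Tnfrsf18* was at 280.1 CPM against 76.5 CPM (log2 ratio 1.87, interval 1.47 to 2.25), and *Tnfrsf9* at 70.0 CPM against 7.87 CPM (log2 ratio 3.15, interval 2.25 to 3.96). The *Foxp3* cells held 7.33% of the *Tnfrsf18* and 16.1% of the *Tnfrsf9* UMIs. In the *Foxp3* cells the 61 *Tnfrsf4* UMIs lay in 29 cells and the 15 *Tnfrsf9* UMIs in 9 cells. Variation between these cells is not in the intervals.

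Of the other receptors, those with few UMIs were less precisely measured in these cells. *Tnfrsf1b* was at 37.3 CPM (16.1 to 73.6) against 8.88 CPM, and *Fas* at 70.0 CPM (39.2 to 116) against 29.4 CPM. *Cd27*, at 303 against 276 CPM, *Tnfrsf1a*, at 70.0 against 62.4 CPM, and *Tnfrsf14*, at 14.0 against 5.45 CPM, had intervals of the ratio that include 0. *Foxp3* counts are sparse, so cells of this lineage can also be among those without a UMI. Before thinning, 343 of the 8031 kept unstimulated cells had a *Foxp3* UMI. The 7077 other cells can therefore include cells whose *Foxp3* UMI was lost by thinning. *Foxp3* cells were 4.27% of all unstimulated, 1.78% of stimulated WT and 2.28% of stimulated IFT20-KO cells before thinning. These shares come from libraries of unlike depth, and after thinning they were 2.12%, 0.57% and 0.71%. Cells with a *Foxp3* UMI before thinning were also left out of both WT libraries. The stimulation log2 ratio was then 4.75 for *Tnfrsf4*, 4.33 for *Tnfrsf9* and 1.07 for *Tnfrsf18*. The pattern was not particular to *Foxp3*. In the 125 unstimulated cells with a UMI of *Il2ra*, *Tnfrsf4* was at 303 CPM, against 15.3 CPM in the others. The log2 ratios were 4.31 for *Tnfrsf4*, 3.45 for *Tnfrsf9* and 2.01 for *Tnfrsf18*. How far the *Il2ra* and *Foxp3* cells were the same cells is not given here.

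**Figure D3:**
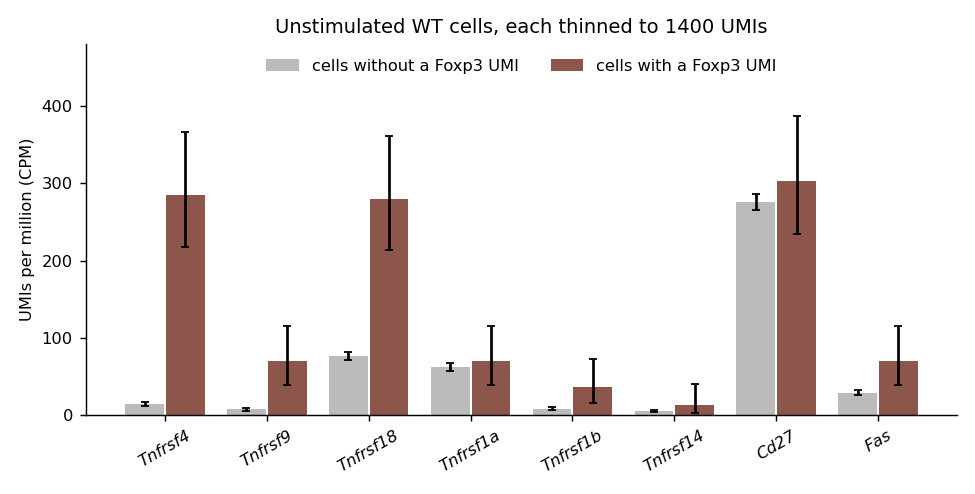
Level of the 8 receptor genes in unstimulated WT cells thinned to 1400 UMIs each, in the 7077 cells without a *Foxp3* UMI (grey) and the 153 cells with one (brown), in UMIs per 1000000 (CPM, from 0) with 95% counting intervals. *Tnfrsf4*, *Tnfrsf9* and *Tnfrsf18* are higher in the cells with a *Foxp3* UMI, whereas the intervals of *Cd27* and *Tnfrsf1a* overlap.

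The uneven distribution also showed in the counts per cell. For *Tnfrsf4* the variance of the thinned counts over cells was 2.50 times their mean in unstimulated WT, 1.61 in stimulated WT and 1.32 in IFT20-KO cells, where a value near 1 is what random sampling of an even level gives. It was 1.93, 1.52 and 1.35 for *Tnfrsf9*, whereas it lay between 0.992 and 1.16 in all libraries for the other 6 receptors. A value near 1 does not by itself show an even level, since it can stay there when UMIs are few. In unstimulated WT it was 1.06 for *Tnfrsf18* and 1.03 for *Tnfrsf1b*, though both were higher in the *Foxp3* cells. In unstimulated cells *Tnfrsf4* and *Tnfrsf9* were found together in 9 cells, where the product of their shares would give 1.34, and *Tnfrsf4* and *Tnfrsf18* in 39 cells, where it would give 15.1. In stimulated WT cells these ratios of observed to product were 1.09 and 1.18. The mean number of the 8 receptors detected per thinned cell was 0.589 in unstimulated WT, 1.11 in stimulated WT and 1.17 in stimulated IFT20-KO cells.

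Within the stimulated libraries *Tnfrsf4* was higher in cells with a UMI of the growth factor gene *Il2*. In WT it was at 735 CPM in the 611 cells with and 351 CPM in the 8871 cells without *Il2* (log2 ratio 1.07, interval 0.94 to 1.19). In IFT20-KO it was at 520.4 CPM in 829 cells and 318 CPM in 13091 cells (log2 ratio 0.71, interval 0.59 to 0.83). The *Il2* cells had more UMIs than the others in WT, with medians of 14095 and 12414, and fewer in IFT20-KO, with medians of 3129 and 5648, and the part of depth in these ratios was not tested. *Tnfrsf18* differed by log2 0.33 (0.11 to 0.54) in WT and 0.21 (0.03 to 0.40) in IFT20-KO. For *Tnfrsf9* the values were 0.29 (0.10 to 0.49) and 0.15 (−0.02 to 0.31), so that the interval included 0 in IFT20-KO.

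Cells with a UMI of *Il2ra*, the IL-2 receptor α chain, also had more of 5 receptors in both stimulated libraries, with intervals of the log2 ratio above 0. In WT *Tnfrsf18* was at 242 CPM in the 2360 cells with and 159 CPM in the 7122 cells without *Il2ra*, *Tnfrsf4* at 470.3 and 345 CPM, and *Tnfrsf1b* at 14.5 and 7.92 CPM. In IFT20-KO the log2 ratios were 0.32 for *Tnfrsf18*, 0.24 for *Tnfrsf4* and 0.82 for *Tnfrsf1b*. *Fas* differed by log2 0.32 (0.01 to 0.62) in WT and 0.41 (0.17 to 0.64) in IFT20-KO, and *Tnfrsf9* by 0.16 (0.05 to 0.28) and 0.18 (0.10 to 0.27). For *Tnfrsf1a*, *Tnfrsf14* and *Cd27* the intervals included 0. *Il2ra* cells had fewer UMIs before thinning than the other cells, with medians of 10963 and 12837.5 in WT and of 2952 and 7804.5 in IFT20-KO. Several receptors were at higher CPM in cells with few UMIs, and the part of depth in these ratios was not tested.

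To ask whether loss of IFT20 changed the receptors of stimulated cells, the stimulated IFT20-KO library was compared with the stimulated WT library. At a 1.5-fold limit, 0 of the 8 receptors were higher and 0 were lower, whereas 13.4% of the 13504 genes tested were higher and 3.27% were lower. Among the 11049 genes with at least 100 UMIs, which include the 8 receptors, these shares were 8.82% and 1.06%. Counted as UMIs per cell without scaling, 4 of the 8 receptors were at least 1.5-fold lower in IFT20-KO. On that measure the median log2 ratio was −0.59 over the 8 receptors and −0.49 over all genes. The share of all genes past the limit on that measure is not given here. In CPM the median log2 ratio was 0.04 over the 8 receptors and 0.14 over all genes. A receptor with an unchanged CPM therefore stands below the typical gene. *Tnfrsf4* was lower, by log2 −0.15 (−0.17 to −0.13), and with scaling by the median ratio of genes by −0.30. *Tnfrsf9* and *Tnfrsf18* were each higher by 0.18, with intervals of 0.16 to 0.21 and 0.15 to 0.21, but by 0.04 each with that scaling. Counted as UMIs per cell without scaling, both were lower in IFT20-KO, by −0.45 each.

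The largest ratio was that of *Tnfrsf1b*, at 7.71 CPM in stimulated WT and 10.4 CPM (9.81 to 11.0) in IFT20-KO cells (log2 ratio 0.43, interval 0.30 to 0.56), and it too was lower as UMIs per cell, by −0.19. In thinned cells it reached 0.66, past the 1.5-fold limit, with a UMI in 1.33% of stimulated WT and 2.07% of IFT20-KO cells. The thinned shares in the same order were 34.8% and 33.8% for *Tnfrsf4*, 23.4% and 27.7% for *Tnfrsf9*, and 21.0% and 22.9% for *Tnfrsf18*. The intervals of *Tnfrsf1a* (−0.01 to 0.14), *Tnfrsf14* (−0.18 to 0.18), *Cd27* (−0.06 to 0.00) and *Fas* (−0.06 to 0.08) included 0. Their levels in IFT20-KO were 27.8 CPM, 4.57 CPM, 162 CPM and 28.8 CPM.

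The stimulated libraries differed in how many of their cells held few UMIs. Cells with 1400 to 3000 UMIs were 5517 of the 13920 IFT20-KO cells and 1726 of the 9903 stimulated WT cells, and the lowest UMI count of a deposited barcode was 1493 and 709. Several receptors were at higher CPM in such cells. *Tnfrsf1b* was at 22.3 CPM in WT and 22.5 CPM in IFT20-KO cells with 1400 to 3000 UMIs, and at 7.13 and 8.05 CPM in cells with 12000 to 24000 UMIs. Within each of the 5 depth classes that the stimulated libraries share, its log2 ratio was between 0.02 and 0.20, and each interval included 0.

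For *Tnfrsf4* the difference was larger than overall in the classes with the fewest UMIs. With 1400 to 3000 UMIs it was at 494 CPM in WT and 349 CPM in IFT20-KO cells (log2 ratio −0.50, interval −0.58 to −0.42), and with 3000 to 6000 UMIs at 534 and 417 CPM (log2 ratio −0.36, interval −0.47 to −0.24). In the next 2 classes it was −0.10 and −0.13, and in cells with 24000 or more UMIs it was 0.00 (−0.07 to 0.07). *Cd27* had the same order, with a log2 ratio of −0.41 (−0.52 to −0.29) in the lowest class, at 257 and 194 CPM, and 0.01 (−0.11 to 0.13) in the highest. *Fas* was at 58.1 CPM in WT and 43.8 CPM in IFT20-KO cells of the lowest class (log2 ratio −0.40, interval −0.64 to −0.16).

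For *Tnfrsf9* and *Tnfrsf18* the sign depended on the class. *Tnfrsf9* was lower in IFT20-KO with 1400 to 3000 UMIs (426 against 343 CPM, WT first) and higher with 3000 to 6000 UMIs (278 against 348 CPM). *Tnfrsf18* was lower in the first of these classes, by log2 −0.14 (−0.25 to −0.03), and higher in the deepest, by 0.19 (0.07 to 0.30). Because the depth of a cell was not set by the design, a difference in the mix of cells and a difference within cells cannot be told apart here.

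**Figure D4:**
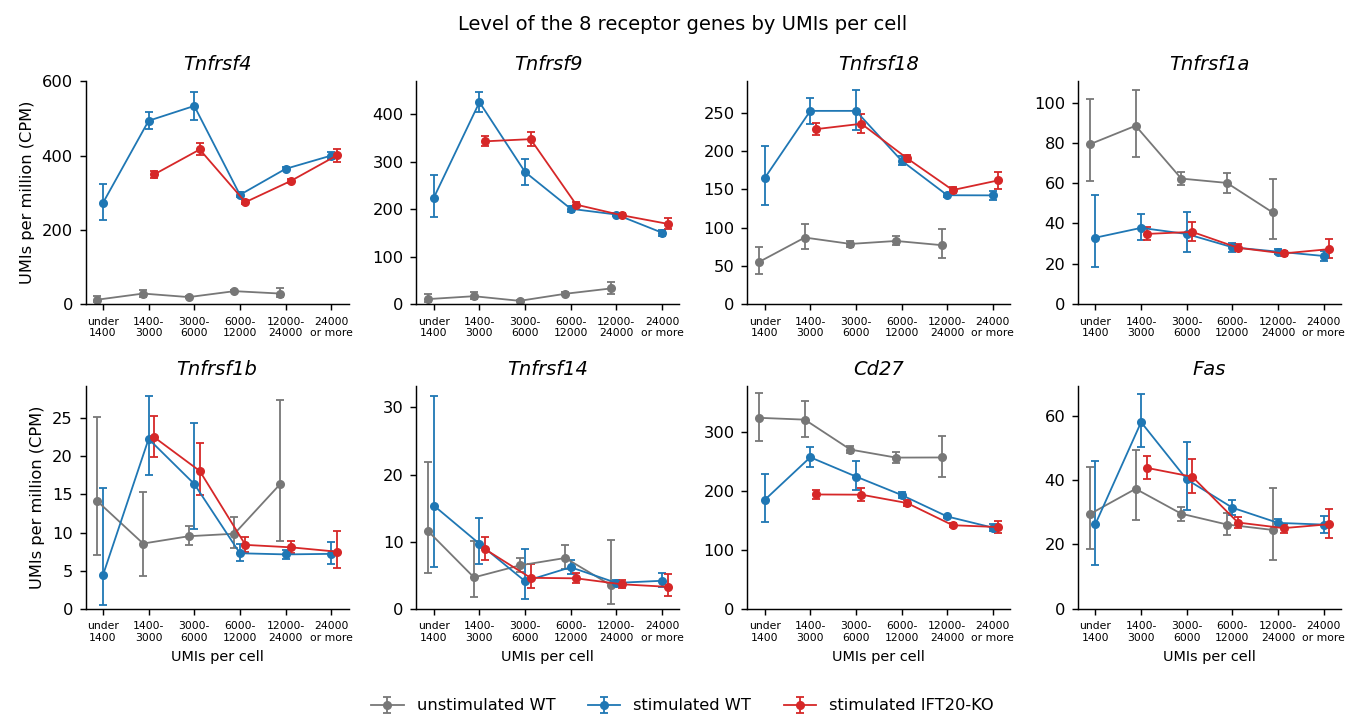
Level of the 8 receptor genes (CPM, linear axes from 0, a scale of its own for each gene) in cells grouped by their UMI count, in unstimulated WT (grey), stimulated WT (blue) and stimulated IFT20-KO (red) cells, with 95% counting intervals and only classes of at least 50 cells. In cells with 1400 to 3000 UMIs *Tnfrsf4* is at 494 CPM in WT and 349 CPM in IFT20-KO, whereas *Tnfrsf1b* is at 22.3 and 22.5 CPM.

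Ligands of TNF receptor superfamily members were also present in the T cells. The 19 ligand genes listed include ligands of receptors that were not followed here, such as CD30 and RANK. Of the 19, 15 had enough UMIs, and 9 of these were at least 2-fold higher and 2 at least 2-fold lower after stimulation. Of all genes compared, 19.3% were higher and 23.0% lower at that limit. Some of the 9 had very few UMIs in unstimulated WT, such as *Cd70* with 0 and *Tnfsf4* with 3. The median log2 ratio of this mixed list was 1.71, which is the value of *Tnfsf8*. These counts and the median therefore do not describe the ligands of the followed receptors alone. *Tnf* and *Lta*, whose products bind both TNF receptors, were at 33.3 and 19.4 CPM without and 96.8 and 168 CPM with stimulation. *Ltb*, which forms a membrane-bound trimer with lymphotoxin α, was at 916 and 445 CPM. *Cd160*, a ligand of HVEM, was at 1.75 and 18.0 CPM, *Tnfsf8*, the ligand of CD30, at 42.3 and 139 CPM, and *Tnfsf11*, the ligand of RANK, at 3.23 and 23.2 CPM.

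Ligands of OX40, 4-1BB, GITR and CD27 did not reach 20 CPM in any library. *Tnfsf4*, the ligand of OX40, was at 0.0808 CPM (3 UMIs) without and 8.61 CPM (1007 UMIs) with stimulation. Its log2 ratio of 6.74 (5.18 to 9.02) was the largest among the ligands compared. *Tnfsf9*, the ligand of 4-1BB, was at 2.24 and 3.92 CPM. *Tnfsf18*, the ligand of GITR, had 0 UMIs in each library. The floor of 3 counts stands at 0.0808, 0.0256 and 0.0282 CPM in unstimulated WT, then stimulated WT, then IFT20-KO cells. *Cd70*, the ligand of CD27, had 0 UMIs in unstimulated WT and was at 0.308 CPM in stimulated WT cells. These 4 were named for their pairing after values had been seen. Between genotypes 3 of the 15 ligands were at least 1.5-fold higher in IFT20-KO and 0 lower, beside 13.4% and 3.27% of all genes. *Tnfsf11* was the only one of the 3 to reach 20 CPM, at 41.4 CPM and log2 0.84 (0.77 to 0.91).

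Of 11 adaptor genes, 2 were at least 2-fold higher and 1 lower after stimulation, beside 19.3% and 23.0% of all genes compared. *Traf1*, which joins the complexes of OX40, 4-1BB and TNFR2, was at 57.8 and 144 CPM, and *Siva1*, which binds the CD27 tail, at 27.7 and 168 CPM. *Traf5*, an adaptor of OX40 and CD27, was lower, at 74.5 and 15.7 CPM. None of the 11 reached 1.5-fold between the genotypes, where 13.4% of all genes were higher and 3.27% lower. Of 23 further regulators and death effectors, 2 were at least 2-fold higher and 5 lower after stimulation, against the same 19.3% and 23.0%. *Casp8*, an initiator caspase gene, was at 128 CPM without and 55.6 CPM with stimulation. The kinase genes *Ikbkb* and *Map3k14*, of the canonical and the alternative NF-κB pathway, were at 126 and 45.3 CPM and at 37.0 and 14.2 CPM, and *Birc2* at 25.3 and 8.98 CPM.

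Of 20 other receptor genes of the superfamily, 14 had enough UMIs. After stimulation 3 of them were at least 2-fold higher and 4 lower, beside 19.3% and 23.0% of all genes compared. *Tnfrsf25* (DR3) was at 58.9 CPM without and 17.8 CPM with stimulation, and *Relt* at 25.4 and 11.3 CPM. The genes whose pair of log2 ratios lay nearest to that of each receptor, among 6123 genes with at least 20 CPM in a library, are given over only 3 libraries. Nearest to *Tnfrsf4* were *Pycr1*, *Snx9* and *Psat1*, at distances of 0.04, 0.10 and 0.15, and nearest to *Tnfrsf9* were *Cdc45*, *Rilpl2* and *Cd200*, at 0.06, 0.06 and 0.10. For *Fas* they were the ribosomal protein genes *Rps18*, *Rps27a* and *Rps3*, at most 0.01 away, and for *Tnfrsf1a* they were *Rhoh*, *Smap2* and *Flot1*, at most 0.02 away. For *Tnfrsf18* they were *Foxp4*, *Stx6* and *Dhrs4*, for *Tnfrsf1b* *Helb*, *Xiap* and *Arid5b*, for *Tnfrsf14* *Clk3*, *Washc3* and *Lamtor2*, and for *Cd27* *Trp53rka*, *Rbm38* and *Icam2*, all within 0.03.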

How the data were processed

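Single-cell libraries of 3 groups, 1 library each, were re-analysed. The authors aligned the reads and called barcodes with Cell Ranger, given as version 3.1.0 in the file headers, on mm10 per the labels, and deposited UMI counts per gene and barcode without normalization. The labels name a 5′ kit and the paper's methods a 3′ kit, and this was not settled. Barcodes were kept above 200 genes and below 15% mitochondrial UMIs, and UMIs were summed per library and divided by the total (CPM). Intervals at the 95% level were exact Poisson for CPM, exact binomial for ratios and Clopper-Pearson for shares, and cover counting error only, with a floor of 3 counts. Genes with at least 10 UMIs over a pair of libraries were compared. Doublets were not called or removed. Cells were also thinned to 1400 UMIs, which left out 801, 421 and 0 cells, or grouped by UMI count.

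The receptors, gene lists and folds were chosen with earlier results of these data known. Named were the 8 receptors, *Ift20*, genes of the other lists with at least 20 CPM past the fold (at most 6 per list and comparison), the 3 nearest genes of each receptor, and genes used to split cells, of which *S100a4* gave too few cells. The promoter motifs were chosen after values had been seen. In simulated counts with 200 changed genes, the true ratio lay in its interval for 96.5% of them for stimulation (13297 genes) and 92.5% for genotype (13504 genes). The simulated counts were drawn from the Poisson model that the intervals assume. They therefore check the computation only, and not whether real counts vary more. Python 3.11.15, numpy 2.4.6, scipy 1.17.1, pandas 2.3.3 and matplotlib 3.10.9 were used. The alternatives tried were all barcodes, a stricter filter, median-ratio scaling, UMIs per cell, per-cell fractions, thinning, removal of low-UMI or *Foxp3* cells, equally weighted depth classes, and other minimums of UMIs per gene. 1 gene that the naming rule selects is not reported here.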

Additional observations from a re-analysis of the deposited data

How the results depend on the processing

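With 1 library per group, the limit of these values is that animals and cultures were not repeated, and for the rarest transcripts, *Tnfrsf14* and *Tnfrsf1b*, also depth. No paired analysis was possible because each group had 1 library and no test was made. Of 9 alternatives, *Tnfrsf4* and *Tnfrsf9* stayed at least 3.93 and 3.92 above unstimulated WT on the log2 scale. In single depth classes their ratios went down to 3.09 and 2.53. In IFT20-KO *Tnfrsf4* stayed lower in the 9 alternatives, between −0.78 and −0.13. The median of the 8 receptors for stimulation, −0.18, turned to 1.17 with UMIs per cell, 0.097 with per-cell fractions, 0.069 with thinned cells and 0.27 with equally weighted depth classes. The median of all genes, −0.09, became 1.26, 0.008, 0.099 and 0.04 in the same order. For IFT20-KO against WT, 0.04 became −0.59 with UMIs per cell, −0.11 with median-ratio scaling, −0.090 with depth classes and 0.16 with thinned cells. The median of all genes for this comparison, 0.14, became −0.49 with UMIs per cell, −0.008 with median-ratio scaling and 0.16 with thinned cells. With UMIs per cell, 5 receptors were 2-fold higher and 0 lower after stimulation and 4 were 1.5-fold lower in IFT20-KO. With median-ratio scaling, per-cell fractions, thinned cells, *Foxp3* cells left out or depth classes, 3 were 2-fold higher after stimulation, with *Tnfrsf18* among them. With thinned cells 1 (*Tnfrsf1b*, 0.66) was 1.5-fold higher in IFT20-KO. The shares of all genes past these limits on those measures are not given here.

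Single receptors that changed sign with UMIs per cell were, for stimulation, *Tnfrsf1a* (0.12), *Tnfrsf1b* (1.01), *Tnfrsf14* (0.80) and *Cd27* (0.65), and for genotype *Tnfrsf9* (−0.45), *Tnfrsf18* (−0.45) and *Tnfrsf1b* (−0.19). By construction this measure carries the different UMI totals per cell. *Tnfrsf1b* turned to 0.024 with per-cell fractions and 0.013 with thinned cells and *Tnfrsf14* to 0.22 with depth classes, for stimulation, and *Tnfrsf18* to −0.017 with depth classes, for genotype. For these the cause was not tested. With at least 100 UMIs per gene 8.82% of genes were 1.5-fold higher and 1.06% lower in IFT20-KO, and with at least 1 UMI 18.6% and 9.64%.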
